A study of Mus musculus with 24 samples.

Results

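The step from day 6 to day 7 of differentiation was measured in 5 culture series of male mouse embryonic stem cells (mESCs), with 1 RNA-seq library per series and day, so that 10 of the 24 libraries of the series entered the comparison. The members were taken by their labels alone: each day 7 library was set against the day 6 library of the same culture series. All cells were male, of C57/Bl6 strain, were expanded in 2i medium (inhibitors of MEK and GSK3, which hold mESCs in the naive state) and were then weaned into DME HiHi medium. Every series, the control included, was transduced with an shRNA on day 2 and placed under puromycin from day 3. Nons1 carried a nonsilencing control hairpin, Smarca4.4 and Smarca4.6 carried 2 hairpins against Smarca4, the ATPase of the BAF chromatin remodelling complex, and Smarcc1.6 and Smarcc1.7 carried 2 hairpins against Smarcc1, a core BAF subunit. The 5 series are therefore not replicates of a single condition, differentiation was not directed to any lineage, and the labels do not say whether the series were grown side by side, so the p-values measure the spread of the step between these 5 series. A genotype label on the Smarca4 libraries names a Smarcc knockdown, and their titles, which name Smarca4 hairpins, were followed. Libraries of days 4 and 5 of the same series served to place the step on the time course, and the 4 libraries of a further control series, Nons2, were not analysed here.

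When mESCs leave the naive state they pass through a formative, epiblast-like state, in which the core factors Pou5f1 (Oct4) and Nanog are still present, before lineage genes take over. Cells that spread and flatten on plastic in serum assemble actin fibres, and the transcription factor SRF, with its cofactors, drives many genes of that contractile cytoskeleton through CArG boxes, short A/T-rich sites in their promoters. Keratins 8 and 18 mark simple epithelia, including trophoblast, while type I collagen and smooth muscle actin mark mesenchymal cells. In bulk libraries, more cells of a type and more RNA per cell cannot be told apart.

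The hairpin guides tell the culture series apart, and each series carries the same guide on both days. Each is written 5′ to 3′ with its seed, bases 2 to 8, in capitals.
Smarca4.4: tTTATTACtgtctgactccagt
Smarca4.6: tTGCATAAtagtgttcatcagt
Smarcc1.6: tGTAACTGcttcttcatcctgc
Smarcc1.7: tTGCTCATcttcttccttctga
Nons: cTTACTCTcgcccaagcgagag
In the GENCODE M21 transcripts (GRCm38) the Smarca4.4 guide was complementary to chr9:21703327-21703348, on the plus strand in exon 34 of the 34 exons of Smarca4 and outside the coding sequence. The Smarca4.6 guide matched chr9:21670504-21670525, in coding exon 22 of Smarca4. The Smarcc1.6 and Smarcc1.7 guides matched chr9:110177472-110177493 and chr9:110173911-110173932, in coding exons 13 and 11 of the 29 exons of Smarcc1. The control guide matched neither gene.

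The targeted genes were read first, in every library. Below, 5 values in a row stand in the order Nons1, Smarca4.4, Smarca4.6, Smarcc1.6 and Smarcc1.7, in rpm, reads scaled to the size of their library, and a range such as lowest–highest spans the 5 series of a day. Smarcc1 measured 127, 242, 149, 43.6 and 76.4 rpm on day 6 and 172, 184, 209, 71.5 and 80.9 rpm on day 7, so both Smarcc1 hairpin series were the lowest on both days. Smarca4 measured 90.4, 50.03, 19.5, 96.7 and 202 rpm on day 6 and 160.3, 42.2, 43.6, 195 and 199 rpm on day 7, and both Smarca4 hairpin series were the lowest on both days. The step itself did not pass the threshold for Smarcc1 (log2 change 0.26 ± 0.15 (SE), adjusted p = 0.16). Smarca4 passed narrowly (log2 change 0.55 ± 0.20 (SE), adjusted p = 0.043), and no longer did when libraries were centred on their median gene (adjusted p = 0.087).

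Total reads ranged from 15717152 to 22472113 over the 10 libraries, in which 3 reads, the floor at or under which a gene is called not detected, were worth 0.133 to 0.191 rpm. On the first 2 principal components (59.3% and 16.1% of the variance) day 7 lay beyond day 6 on the first axis in all 5 series. On the second axis the day 6 libraries of Smarca4.4 (1.84) and Smarcc1.7 (11.2) stood apart from those of the other 3 series (-47.8 to -37.5), although each shares its target gene with a series on the other side. The steps of single genes correlated between pairs of series with Pearson's r from 0.502 to 0.841 over the 13486 genes tested, a description across genes, which are not independent replicates.

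**Figure D1:**
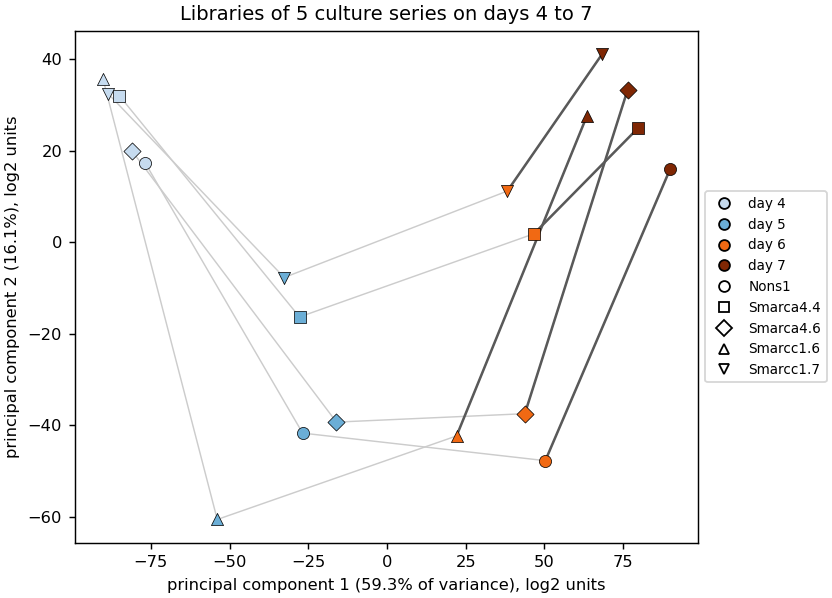
Position of the 20 libraries of 5 culture series on the first and second principal components of log2 rpm (colour, day; symbol, series; dark lines join day 6 to day 7). Day 7 lies to the right of day 6 in each series, and the day 6 libraries of Smarca4.4 and Smarcc1.7 lie above the other 3.

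The length of a gene's transcript moved with the step. The median log2 change was -0.32 for 908 genes with transcripts under 1 kb, -0.09 for 2652 genes of 1 to 2 kb, 0.16 for 5299 genes of 2 to 4 kb and 0.36 for 4404 genes over 4 kb. The gradient was present in Nons1, Smarca4.6 and Smarcc1.6, where Spearman's rho between length and step over 13263 genes was 0.377, 0.470 and 0.470, and was small in Smarca4.4 (0.0217) and Smarcc1.7 (0.174). Its part in the results was not tested. Counts are therefore also given after a smooth trend on transcript length was removed from each library, a check chosen after the data had been seen.

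**Figure D2:**
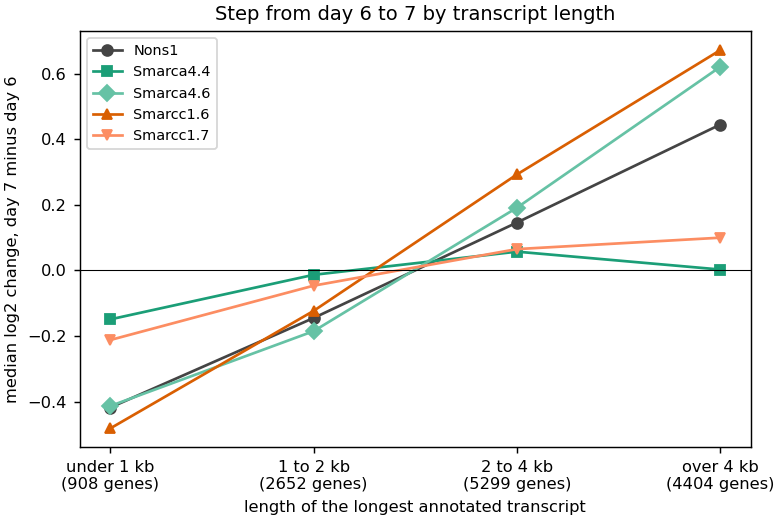
Median log2 change from day 6 to day 7 (vertical axis) in 4 classes of transcript length (horizontal axis), 1 line per culture series. The lines of Nons1, Smarca4.6 and Smarcc1.6 climb from -0.42, -0.41 and -0.48 under 1 kb to 0.44, 0.62 and 0.67 over 4 kb, and that of Smarca4.4 stays between -0.15 and 0.06.

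Of 13486 genes tested, 6704 (49.7%) changed from day 6 to day 7 at an adjusted p under 0.05, 4380 (32.5%) higher and 2324 (17.2%) lower. Without the pairing of libraries by culture series 3657 genes were called. The median gene rose by 0.16 on the log2 scale, so list medians are given below with their distance from it. The balance of directions depended on the scaling: 2795 genes (20.7%) were higher and 3540 (26.2%) lower once libraries were centred on their median gene, 3098 (23.0%) and 3349 (24.8%) after quantile normalization, and 3083 (23.2%) and 3215 (24.2%) of 13263 after removal of the length trend. No gene called in one direction was called in the other under centring or removal of the length trend. Among the 4380 genes called higher, 792 at least doubled and 85 rose at least 4-fold, whereas 224 of the 2324 genes called lower fell at least 2-fold and 8 at least 4-fold. The same direction was seen in all 5 series for 3697 of the genes called higher and 2124 of those called lower.

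**Figure D3:**
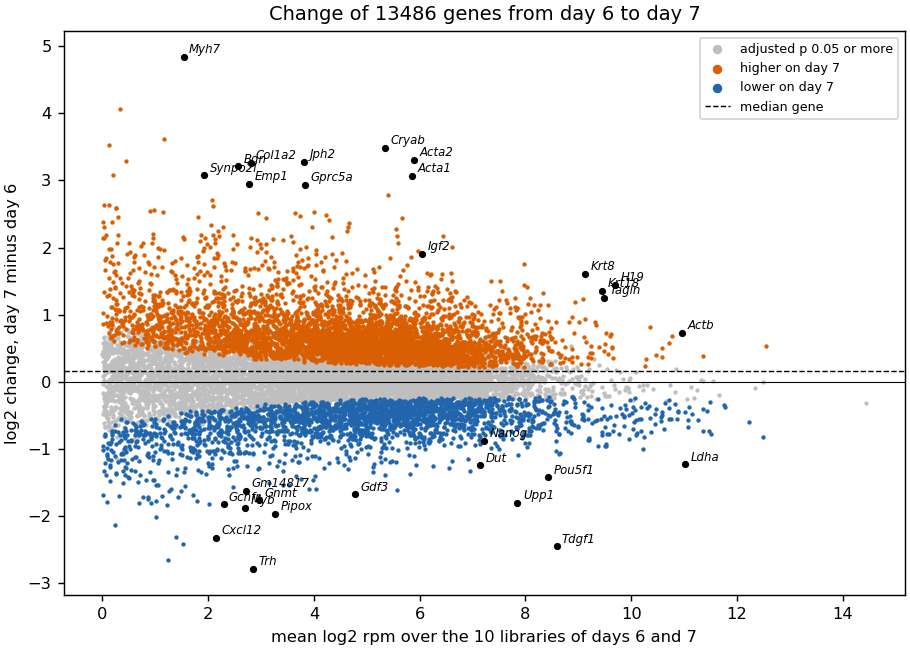
Log2 change from day 6 to day 7 (vertical axis) against mean log2 rpm of the 10 libraries (horizontal axis) for 13486 genes, coloured by call. Named genes reach from Myh7 at 4.84 to Trh at -2.79, and more genes lie above 2 than below -2.

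Among single genes, the 10 largest rises of genes that changed the same way in all 5 series were those of Myh7, Cryab, Acta2, Jph2, Col1a2, Bgn, Synpo2l, Acta1, Emp1 and Gprc5a. Their log2 changes ran from 2.93 to 4.84, and each kept an adjusted p under 0.05 when any 1 series was left out, after centring and after removal of the length trend. Myh7 (chr14:54970688-54994634), the slow myosin heavy chain of cardiac and skeletal muscle, measured 1.08, 0.288, 0.445, 0.311 and 1.08 rpm on day 6 and 43.3, 10.9, 9.42, 13.5 and 14.97 rpm on day 7. The days did not overlap, as for 1543 of all 13486 genes tested (11.4%) in this direction and 746 (5.53%) in the other, Nons1 was highest on day 7, and the rise was 28.6-fold (log2 change 4.84 ± 0.25 (SE), adjusted p = 4.7e-06).

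Cryab (chr9:50752758-50756633), a small heat shock protein abundant in muscle, measured 12.3, 20.7, 16.01, 7.03 and 9.58 rpm and then 171, 254, 171, 76.4 and 83.6 rpm. It rose in all 5 series without overlap of the days and was lowest in both Smarcc1 series on both days (log2 change 3.48 ± 0.11 (SE), adjusted p = 4.6e-07). Jph2, which holds the plasma membrane and the sarcoplasmic reticulum together in heart muscle, went from 10.7, 6.28, 5.21, 1.65 and 3.301 rpm to 94.1, 48.99, 45.3, 25.03 and 31.2 rpm (log2 change 3.28 ± 0.15 (SE), adjusted p = 3e-06). Synpo2l, an actin-binding protein of the muscle Z-disc, went from 0.572–3.88 rpm to 7.47–30.2 rpm over the 5 series (log2 change 3.07 ± 0.19 (SE), adjusted p = 1e-05). Emp1, an epithelial membrane protein, climbed from 1.33–3.45 to 14.8–24.1 rpm, and Gprc5a, an orphan receptor inducible by retinoic acid, from 3.47–6.97 to 26.2–63.9 rpm. None of these genes, picked for large rises in all 5 series, had overlapping days.

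**Figure D4:**
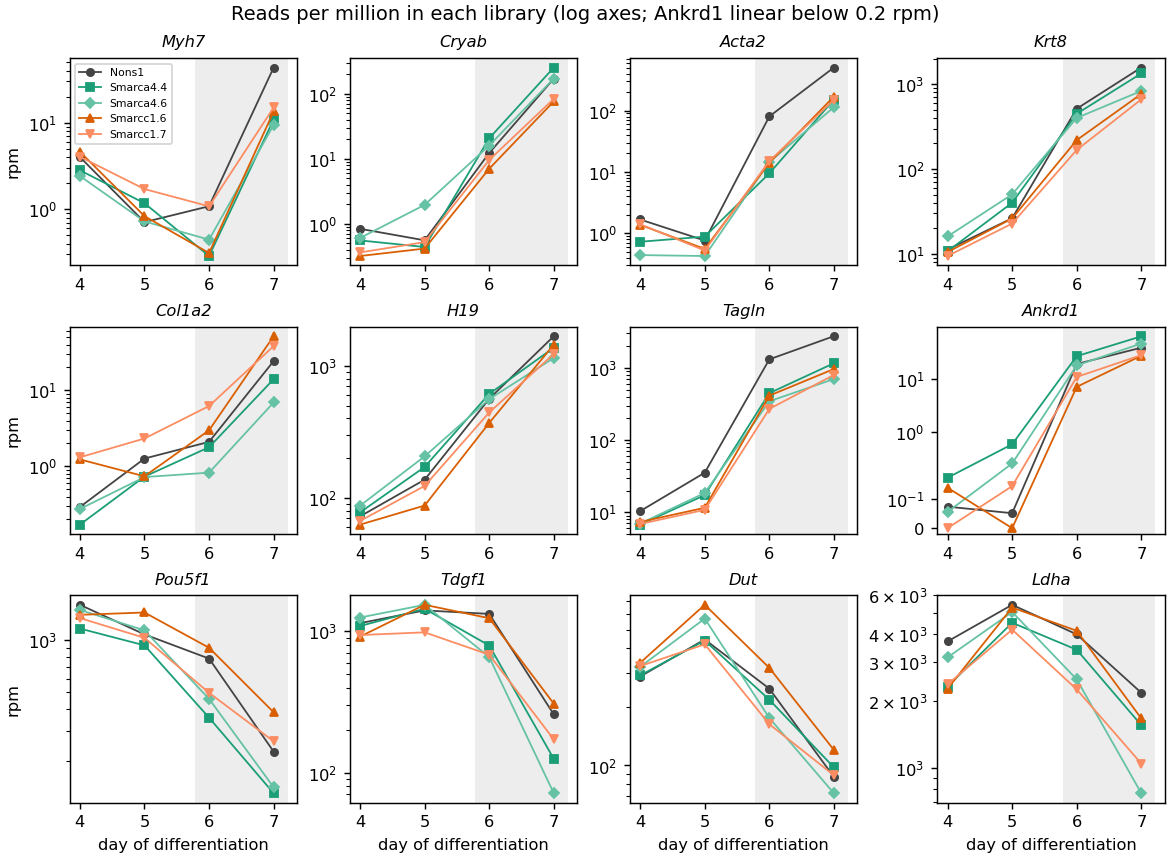
Scaled reads, rpm (vertical axes, logarithmic; Ankrd1 linear near 0) of 12 genes on days 4 to 7 (horizontal axes) in each culture series, with days 6 and 7 shaded. Myh7 stays under 5 rpm until day 6 and rises on day 7, Acta2, Tagln and Ankrd1 rise from day 5 to day 6 and again to day 7, and Pou5f1, Tdgf1, Dut and Ldha were lower on day 7 than on day 6 in all 5 series.

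The contractile cytoskeleton rose almost as a whole. Of 32 listed actin, myosin, tropomyosin and SRF or YAP target genes, 31 were tested, 29 were called higher and none lower (26 higher and 0 lower after median centring, 29 higher and 0 lower after removal of the length trend), with a median log2 change of 0.82, 0.65 above the median gene. Acta2 (chr19:34241090-34255336), smooth muscle actin, measured 80.5, 9.499, 14.5, 14.2 and 15.04 rpm on day 6 and 506, 152, 114, 170.1 and 151 rpm on day 7. Nons1 was the highest series on both days, the 4 knockdown series lay close together, and the days did not overlap (log2 change 3.31 ± 0.17 (SE), adjusted p = 4.7e-06). Acta1, skeletal muscle actin, measured 65.9, 22.9, 13.2, 10.5 and 15.04 rpm and then 463, 173, 132, 113 and 112 rpm, again highest in Nons1 and without overlap (log2 change 3.07 ± 0.12 (SE), adjusted p = 9.7e-07).

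Actb, Tpm1 and Actn4 rose less than the muscle actins. Actb, the cytoplasmic actin, measured 1781, 1996, 1279.7, 1197 and 1624 rpm on day 6 and 2949, 3000.3, 2485, 2241 and 2269 rpm on day 7 (log2 change 0.73 ± 0.10 (SE), adjusted p = 0.00046), Tpm1, a tropomyosin, had means of 1030.0 and 1786 rpm (log2 change 0.82 ± 0.10 (SE), adjusted p = 0.00023), and the actin crosslinker Actn4 had 624 and 1017 rpm (log2 change 0.72 ± 0.11 (SE), adjusted p = 0.00078). All 3 rose in all 5 series. Tagln, which binds actin in smooth muscle, measured 1311, 446, 344, 412 and 269.9 rpm and then 2743, 1158, 699, 963 and 798 rpm. Each series rose, but the day 6 library of Nons1 lay above 4 of the day 7 libraries (log2 change 1.25 ± 0.10 (SE), adjusted p = 3.6e-05). The members Cnn2, Tagln2 and Srf, chosen after their values were seen, rose by 1.45, 1.36 and 0.48 on the log2 scale. Srf, the transcription factor itself, had means of 66.4 and 90.2 rpm, with an adjusted p of 0.0093.

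Promoters of contractile genes are shown because the members moved together. In the RefSeq promoter table (GRCm38.p6, 250 bases before to 50 after each start), 9342 of the genes tested were matched by symbol, and 26 of the 32 contractile genes. A CArG box was searched on either strand as CC, 6 bases of A or T, and GG. An exact match was found in 6 of these 26 (23.1%), Acta1, Actg1, Cnn2, Myl9, Vcl and Srf, beside 1.34% of the promoters of genes tested. The letters GGAATG, the core bound by TEAD factors, stood in 12 of the 26 (46.2%), beside 11.8%. Many of these genes were listed because they are known SRF or YAP targets, so the shares describe the list. Promoters of 3 of them follow, 5′ to 3′ in the direction of transcription, with the CArG boxes in capitals.
Acta1 (chr8:123894726-123895025, minus strand): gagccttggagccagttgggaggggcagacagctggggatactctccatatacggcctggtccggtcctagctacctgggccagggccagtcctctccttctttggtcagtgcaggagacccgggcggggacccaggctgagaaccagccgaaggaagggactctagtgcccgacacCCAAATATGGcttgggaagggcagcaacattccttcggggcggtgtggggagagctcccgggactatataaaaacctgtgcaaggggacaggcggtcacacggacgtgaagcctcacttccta
Srf (chr17:46556113-46556412, minus strand): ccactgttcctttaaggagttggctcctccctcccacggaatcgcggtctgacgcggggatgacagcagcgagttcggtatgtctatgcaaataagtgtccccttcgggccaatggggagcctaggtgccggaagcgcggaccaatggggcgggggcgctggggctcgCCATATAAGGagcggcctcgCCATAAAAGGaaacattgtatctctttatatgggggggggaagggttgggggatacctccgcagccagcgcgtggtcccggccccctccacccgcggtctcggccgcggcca
Vcl (chr14:20929148-20929447, plus strand): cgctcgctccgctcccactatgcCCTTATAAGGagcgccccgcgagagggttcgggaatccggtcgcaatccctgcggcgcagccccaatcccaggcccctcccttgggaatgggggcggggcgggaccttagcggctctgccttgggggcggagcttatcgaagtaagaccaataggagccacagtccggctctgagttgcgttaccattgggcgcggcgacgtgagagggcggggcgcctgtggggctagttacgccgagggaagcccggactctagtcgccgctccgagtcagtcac
The box of Acta1 begins 73 bases before the start and its gene rose 8.405-fold. Srf holds 2 boxes, 82 and 62 bases before the start, and Vcl, which encodes the adhesion protein vinculin, holds 1 at 227 bases before the start. Acta2, with a similar rise to Acta1, held no exact match to this pattern in the window. Boxes that depart from the pattern by a base were not searched.

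Extracellular matrix genes rose alongside. Of 35 listed collagens and matrix genes, 25 were tested, 21 were higher and none lower (18 higher and 0 lower after median centring, 17 higher and 0 lower after removal of the length trend), with a median of 0.87, 0.71 above the median gene. Col1a2 (chr6:4504814-4541543), a chain of type I collagen, measured 2.0996, 1.78, 0.826, 2.98 and 6.22 rpm on day 6 and 24.3, 14.04, 6.93, 51.7 and 38.3 rpm on day 7, higher in both Smarcc1 series than in the other 3 on day 7 and without overlap of the days (log2 change 3.26 ± 0.20 (SE), adjusted p = 1.1e-05). Its partner chain Col1a1, chosen after its values were seen, went from 2.04–13.7 to 15.9–60.4 rpm (log2 change 2.52 ± 0.27 (SE), adjusted p = 0.00016). The proteoglycan Bgn went from 1.398–2.61 to 12.3–39.9 rpm (log2 change 3.21 ± 0.19 (SE), adjusted p = 8.5e-06).

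Other matrix members had smaller rises. Thbs1, an adhesive glycoprotein, went from 60.1–277 to 284–678 rpm, Serpinh1, the collagen chaperone, from 138–329 to 216–638 rpm, and P4ha1, a prolyl hydroxylase, from 172–234 to 252–338 rpm, with log2 changes of 1.75, 0.86 and 0.53. P4ha1 no longer passed after centring (adjusted p = 0.052). Among 12 tested genes of the mesenchymal switch, 9 were higher and none lower (after centring 7 were higher and 1 lower), with a median of 1.04. They included the ligand Tgfb2 (2.18), the calcium-binding protein S100a6 (1.46), fibronectin, Fn1 (1.22), and vimentin, Vim (0.47), the last with an adjusted p of 0.12 after centring.

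The summed level of 6 fibroblast markers was 12.8–32.4 rpm on day 6 and 33.5–129 rpm on day 7, with all 6 above 3 reads in at least 1 library of each day. Much of the day 7 sum came from 2 genes that stand in the matrix list too. These were Col1a1, with means of 6.71 and 34.5 rpm, and Col1a2, with 2.78 and 27.0 rpm. Another of the 6, Col3a1, had means of 0.0957 and 0.165 rpm. Of the 8 macrophage markers, 5, Ptprc, Emr1, Tyrobp, Fcer1g and Lyz2, were at or under 3 reads in every library of both days, while the summed level of the 8 was 10.1–15.9 rpm on day 6 and 27.6–47.5 rpm on day 7. Skeletal muscle markers summed to at most 0.915 rpm on either day, with Myod1 and Myf5 at or under 3 reads, keratinocyte markers to at most 1.497 rpm and hepatocyte markers to at most 2.98 rpm, with Alb and Serpina1b at or under 3 reads. The 3 neuron markers measured summed to 49.8–111 rpm on day 6 and 36.4–104 rpm on day 7, with Dcx at or under 3 reads. Their part in the results was not tested.

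Simple epithelial genes rose too. Of 13 tested genes of trophoblast and simple epithelium, 10 were higher and none lower (9 higher and 0 lower after median centring, 9 higher and 0 lower after removal of the length trend), with the highest median of the 33 lists at 1.41, 1.24 above the median gene. Krt8 (chr15:101996711-102004342), an intermediate filament keratin, measured 513, 448, 399.9, 219 and 168 rpm on day 6 and 1569, 1336, 831, 766 and 662 rpm on day 7. Both Smarcc1 series were lowest on both days, and the days did not overlap (log2 change 1.61 ± 0.13 (SE), adjusted p = 3.2e-05). Krt18, the partner of Krt8 in the filament, measured 711, 458, 653, 255 and 291 rpm and then 1712, 1503, 1103, 755 and 803 rpm, again lowest in both Smarcc1 series (log2 change 1.35 ± 0.13 (SE), adjusted p = 8.9e-05).

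Krt19, another simple keratin, was highest in Nons1 on both days and went from 22.9–152 to 42.8–441 rpm, with overlapping ranges but a rise in all 5 series (log2 change 1.41 ± 0.13 (SE), adjusted p = 6.9e-05). The 3 tested members that were not called were the factors Tfap2c, Eomes and Ascl2, named after their values were seen. Of 22 epithelial adhesion and polarity genes, 18 were higher and none lower (14 higher and 1 lower after median centring, 15 higher and 1 lower after removal of the length trend), with a median of 0.56. Desmoplakin, Dsp, of the desmosome, had the largest rise (8.8999–65.5 to 52.4–116 rpm, log2 change 1.84 ± 0.25 (SE), adjusted p = 0.00042). E-cadherin, Cdh1, rose by 0.54, while Epcam, with means of 318 and 363 rpm, was not called (adjusted p = 0.064).

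Cardiac and lateral mesoderm genes were low but partly rising. Of 28 listed, 17 reached the level needed for the test, 9 were higher and 1 lower (8 higher and 3 lower after median centring, 10 higher and 2 lower after removal of the length trend), with a median of 0.76. That level is a mean over both days, so low genes could reach it through day 7. The share called was 58.8%, beside 49.7% of all genes tested. Besides Myh7, and chosen after their values were seen, Tnnc1, the troponin C of heart and slow muscle, went from 0.1904–1.46 to 5.24–25.05 rpm, the ligand Bmp4 from 1.21–3.68 to 6.92–15.5 rpm and the mesoderm factor Hand1 from 1.72–5.87 to 5.91–17.8 rpm. Their log2 changes were 3.61, 2.25 and 1.98, the first from a day 6 library with as few as 3 reads. The homeobox gene Msx1 fell from 1.96–2.99 to 0.693–2.01 rpm, by 0.76 on the log2 scale.

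Other lineages changed less uniformly. Of 19 tested endoderm genes 10 were higher and 2 lower (8 and 5 after removal of the length trend), and the rises included basement membrane genes such as Col4a2 (1.90) and the matrix glycoprotein Sparc (1.19), while the apolipoprotein gene Apoa2 fell (-1.47). Apoe, another apolipoprotein gene, was 0.37 higher but not after centring (adjusted p = 0.35). Of 8 tested primitive streak genes 1 was higher, Cdx1 (2.06), and 5 lower (4 after removal of the length trend), among them the Nodal antagonists Lefty1 (-0.65) and Lefty2 (-0.59). Of 12 neural genes 2 were higher and 4 lower (8 lower after centring or removal of the length trend), with the neural progenitor factor Sox1 falling from 1.34–29.9 to 0.533–10.6 rpm. Called neural genes made up 50% of the list, beside 49.7% of all genes tested. The share called was 63.2% for endoderm, 75% for primitive streak and 80% for blood and endothelial genes. Of 10 blood and endothelial genes 5 were higher, with Runx1 at 1.43, and 3 lower, with Cd34 at -0.98 (3 and 3 after centring).

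Of 39 Hox genes only 10 were high enough to test, 7 of them higher and none lower (6 after centring), with a median of 1.03. The filter averages both days, so low genes could pass it through day 7, as Hoxd9 did with means of 0.826 and 1.76 rpm. The counts and the median are therefore partly set by the filter. Hoxb9 had the largest rise (0.509–1.78 to 1.83–5.74 rpm). Of 13 tested genes of a list of Wnt targets and ligands 6 were higher and none lower (after removal of the length trend 6 higher and 2 lower). The largest rise was that of Wnt6 (2.18), a ligand and so not a readout of the pathway. The share called, 46.2%, was under that of all genes tested, and the median step of the list was 0.08 in Smarca4.4 and -0.06 in Smarcc1.7. Of 14 BMP genes and Id targets 7 were higher and 1 lower (6 and 2 after centring), at a median of 0.35, 0.19 above the median gene. With 57.1% of the list called, beside 49.7% of all genes tested, the share called stood out little. Bmp2, a ligand, rose most (2.64), from 0.254–0.952 to 1.896–4.53 rpm. Its day 6 values all lay under the level of the filter, which it passed through day 7. Id1, a direct BMP target, was not called (0.16, adjusted p = 0.27).

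Pluripotency genes fell, although not all. Of 24 tested naive and core pluripotency genes 12 were lower and 6 higher (4 higher and 14 lower after median centring, 4 higher and 13 lower after removal of the length trend), with a median of -0.31, -0.47 relative to the median gene. Tdgf1 (chr9:110939610-110946158), also called Cripto, the co-receptor of Nodal, measured 1330.3, 794, 658, 1240.2 and 684 rpm on day 6 and 258, 125, 71.4, 308 and 172 rpm on day 7. It fell 5.46-fold in the fit, and no day 7 library reached any day 6 library (log2 change -2.45 ± 0.16 (SE), adjusted p = 1.3e-05). Pou5f1 (chr17:35506037-35510776), chosen after its values were seen, measured 785, 357, 459, 907 and 498 rpm and then 227, 131, 142, 384 and 261 rpm (log2 change -1.42 ± 0.13 (SE), adjusted p = 5.7e-05). It fell in all 5 series, was highest in Smarcc1.6 on both days, and overlapped between days only through that series and Smarca4.4.

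Nanog, likewise chosen, measured 127, 215, 236, 262 and 195 rpm on day 6 and 64.5, 112, 94.996, 175 and 131 rpm on day 7 (log2 change -0.88 ± 0.12 (SE), adjusted p = 0.00043). It was lowest in Nons1 on both days and fell in all 5 series, with overlap between the days. Fgf4, a growth factor under Oct4 and Sox2, fell by 1.25 and the early marker Dppa5a by 0.92 on the log2 scale. Lin28a, an RNA-binding protein, had means of 569 and 490.4 rpm and was not called (adjusted p = 0.14). In the other direction Tfcp2l1, a naive-state factor, rose from 16.1–39.7 to 45.1–85.04 rpm (log2 change 1.21 ± 0.15 (SE), adjusted p = 0.00031). Klf5, Klf2 and Klf4, named after their values were seen, also stood among the 6 called higher. Their log2 changes were 0.91, 0.61 and 0.43, and Klf4 no longer passed after centring (adjusted p = 0.24). Esrrb was not called (-0.13, adjusted p = 0.57). The summed level of 5 markers of undifferentiated mESCs was 166–329 rpm on day 6 and 137–274 rpm on day 7. That sum mixes Nanog, which fell, with Tfcp2l1 and Klf4, which rose.

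Formative and primed epiblast genes fell too, with 10 of 18 lower and 2 higher (2 higher and 13 lower after median centring, 2 higher and 14 lower after removal of the length trend) and a median of -0.45. The transcription factor Foxd3 had the largest fall (-1.70), Otx2, another, fell from 64.7–106 to 28.5–58.6 rpm (log2 change -1.11 ± 0.13 (SE), adjusted p = 0.00021), and the de novo DNA methyltransferase Dnmt3b fell by 0.68. Cldn6, a tight junction protein also counted as epithelial, rose by 1.01. The list of DNA methylation and TET genes had 4 higher and 2 lower of 11 (1 and 5 after centring), so its direction turned with the scaling. Of its members 54.5% were called, beside 49.7% of all genes tested.

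The 10 largest falls among genes that changed the same way in all 5 series were Trh, Tdgf1, Cxcl12, Pipox, Myb, Gchfr, Upp1, Gnmt, Gdf3 and Gm14817, from -2.79 to -1.62 on the log2 scale. All 10 kept an adjusted p under 0.05 when any 1 series was left out, after centring and after removal of the length trend. Trh (chr6:92242061-92244650), the precursor of thyrotropin-releasing hormone, measured 20.04, 7.5996, 9.08, 51.6 and 34.2 rpm on day 6 and 1.87, 1.37, 0.8297, 8.69 and 8.36 rpm on day 7, highest in both Smarcc1 series on both days (log2 change -2.79 ± 0.21 (SE), adjusted p = 3e-05). Upp1, a uridine phosphorylase, measured 454, 293, 302, 807 and 458 rpm and then 107, 89.02, 59.7, 294 and 172 rpm, also highest in the Smarcc1 series (log2 change -1.80 ± 0.14 (SE), adjusted p = 3e-05). Each series fell, but Smarcc1.6 on day 7 was level with the lowest day 6 libraries.

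Of the others, Gdf3, a ligand of the TGF-β family, fell from 36.02–79.3 to 8.85–33.997 rpm, the transcription factor Myb from 9.48–24.9 to 1.88–6.67 rpm, and Pipox, a peroxisomal oxidase, from 12.7–34.1 to 2.42–14.96 rpm. The chemokine Cxcl12 fell from 8.07–15.2 to 0.732–4.03 rpm and the glycine methyltransferase Gnmt from 10.996–18.8 to 2.67–5.81 rpm. Pipox was the only one of these 5 whose days overlapped, against which stand the 5.53% of all genes that were lower without overlap, and the 5 were picked for large falls in all series.

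Genes of DNA replication fell while those of mitosis went both ways. Of 41 replication genes 26 were lower and 1, the licensing factor Cdc6, higher (0 higher and 31 lower after median centring, 0 higher and 31 lower after removal of the length trend), with a median of -0.45, -0.61 relative to the median gene. Dut, which removes dUTP, measured 248, 218, 176, 318 and 163 rpm on day 6 and 87.2, 97.7, 71.9, 120.2 and 89.1 rpm on day 7, without overlap (log2 change -1.25 ± 0.11 (SE), adjusted p = 4.8e-05). Tyms, which makes thymidylate, and Pcna, the replication clamp, both chosen after their values were seen, fell by 1.20 and 0.79. The helicase subunits Mcm7 and Mcm2 fell by 0.65 and 0.35.

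Of 34 mitosis genes 7 were higher, 6 lower and 21 not called, with a median of 0.10, but 2 were higher and 11 lower after centring, so the balance turned with the scaling. Called mitosis genes made up 38.2% of the list, beside 49.7% of all genes tested. Anln, of the cytokinetic ring, had the largest rise (0.57), Mad2l1, of the spindle checkpoint, the largest fall (-0.50), and Top2a, a topoisomerase, measured 831, 982, 1092, 887 and 1196 rpm and then 982, 1016, 979.8, 1067 and 1124 rpm (log2 change 0.06 ± 0.10 (SE), adjusted p = 0.61). Cell cycle inhibitors and p53 targets mostly rose, with 19 of 25 higher and 1 lower (14 higher and 1 lower after median centring, 16 higher and 1 lower after removal of the length trend) and a median of 0.51. Plk2, a kinase induced by p53, rose from 25.01–44.9 to 68.5–197 rpm and Cdkn1a (p21), chosen after its values were seen, from 41.7–72.7 to 89.4–174 rpm (log2 change 1.11 ± 0.09 (SE), adjusted p = 4.2e-05). Bax, a p53 target that promotes apoptosis, was lower (-0.33), but not after removal of the length trend (adjusted p = 0.3), when the only listed gene called lower was the inhibitor Cdkn1b, named after its values were seen.

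Metabolic genes split by pathway. Of 31 glycolysis and hypoxia genes 12 were lower and 8 higher (4 higher and 15 lower after median centring, 5 higher and 14 lower after removal of the length trend), with a median of -0.08. Ldha (chr7:46841475-46855627), lactate dehydrogenase, measured 4002, 3410.2, 2505, 4153 and 2256 rpm on day 6 and 2178, 1554, 765, 1667 and 1042 rpm on day 7, without overlap of the days (log2 change -1.23 ± 0.12 (SE), adjusted p = 9.1e-05). Bnip3, a mitochondrial protein induced by hypoxia, and Pgk1, phosphoglycerate kinase, both chosen after their values were seen, fell by 1.07 and 0.74. Aldoa, aldolase, had means of 3009.6 and 3011 rpm (log2 change 0.02 ± 0.12 (SE), adjusted p = 0.92), and Car9, carbonic anhydrase 9, another hypoxia gene, rose from 1.21–1.8999 to 2.43–4.796 rpm.

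The letters ACGTG, the core of the hypoxia response element, stood on either strand in 16 of 29 matched promoters of this list (55.2%), beside 26.1% of the promoters of genes tested. Many of these genes were listed because they are known to respond to hypoxia, so the share describes the list. Besides genes that fell, the 16 included some that rose, such as Car9 and P4ha1, and some not called, such as Hk2 and Egln1. Promoters of 2 genes that fell are shown with ACGTG in capitals on whichever strand it reads, so that a CACGTG counts once on each strand.
Ldha (chr7:46845554-46845853, plus strand): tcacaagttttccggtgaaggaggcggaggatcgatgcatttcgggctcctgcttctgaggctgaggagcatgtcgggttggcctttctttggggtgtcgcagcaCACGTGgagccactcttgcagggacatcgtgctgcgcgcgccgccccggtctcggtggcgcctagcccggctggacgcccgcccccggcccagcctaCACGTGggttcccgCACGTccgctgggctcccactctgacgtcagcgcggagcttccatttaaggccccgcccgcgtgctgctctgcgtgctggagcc
Bnip3 (chr7:138909457-138909756, minus strand): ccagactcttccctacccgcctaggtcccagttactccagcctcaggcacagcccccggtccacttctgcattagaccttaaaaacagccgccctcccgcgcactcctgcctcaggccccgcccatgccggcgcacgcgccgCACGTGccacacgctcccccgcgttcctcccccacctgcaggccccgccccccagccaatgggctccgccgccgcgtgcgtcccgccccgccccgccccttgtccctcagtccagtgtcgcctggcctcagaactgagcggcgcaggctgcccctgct
Ldha held 5 matches on both strands together and Bnip3 held 2. Of the other motifs searched, ATGCAAAT, the octamer, stood in 1 of 17 pluripotency promoters, that of Zfp42, beside 1.35% of those of genes tested. AGATAA, read by GATA factors, stood in 2 of 22 endoderm, 2 of 15 blood and endothelial and 3 of 23 cardiac promoters, beside 5.89%.

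Genes of cholesterol and fatty acid synthesis rose, with 20 of 31 higher and 1 lower (10 higher and 2 lower after median centring, 13 higher and 3 lower after removal of the length trend) and a median of 0.43, which was 0.26 above the median gene. Hmgcs1, which makes HMG-CoA for the mevalonate pathway, rose (log2 change 0.59 ± 0.12 (SE), adjusted p = 0.0029). Genes of the integrated stress response were more often lower, 9 of 24 with 3 higher (15 and 2 after centring). With 50% of the list called, beside 49.7% of all genes tested, the share called did not stand out. Psat1, of serine synthesis, fell from 750.02–1275 to 356–599.8 rpm (log2 change -0.96 ± 0.10 (SE), adjusted p = 0.00012) and Sars, a tRNA synthetase gene, by 0.58, while the transcription factor Cebpb rose (0.99).

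Short transcripts of the ribosome, mitochondria and proteasome fell. Of 84 cytosolic ribosomal protein genes 67 were lower and none higher (0 higher and 72 lower after median centring, 2 higher and 50 lower after removal of the length trend, with 51 lower and 3 higher after quantile normalization), at a median of -0.50 that became -0.29 without the length trend. Their median transcript length was 940 bases, beside 3056 for all genes tested, and the median step of the list was -0.16 in Smarca4.4 and -0.32 in Smarcc1.7, against -0.59, -0.71 and -0.73 in Nons1, Smarca4.6 and Smarcc1.6. Rpl13a, of the large subunit, measured 8791, 6420.2, 9821, 9237 and 5177 rpm on day 6 and 3999, 4637, 4727, 4843 and 3579 rpm on day 7, without overlap (log2 change -0.83 ± 0.12 (SE), adjusted p = 0.00072). Rpl4 did not pass (-0.09, adjusted p = 0.52). Ribosomal protein genes have many processed pseudogenes, with which reads can be shared.

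Nuclear-encoded respiratory chain genes had 63 of 81 lower and none higher (0 higher and 71 lower after median centring, 5 higher and 48 lower after removal of the length trend), at a median of -0.48, with Atp5k at -1.23 and the ATP synthase subunit Atp5b at -0.32. Mitochondrial ribosomal proteins had 58 of 75 lower and none higher (0 higher and 66 lower after median centring, 3 higher and 47 lower after removal of the length trend), at a median of -0.44, led by Mrpl20 (-1.16). Of 38 proteasome genes 27 were lower and 1, Psmd3, higher (0 higher and 31 lower after median centring, 1 higher and 22 lower after removal of the length trend), with Psma7 at -0.88. Of 68 replication-dependent histone genes 14 were tested, 7 were lower and 2 higher (6 and 3 without the length trend), at a level of at most 20.8 rpm on day 6 in Hist1h4i. These mRNAs end in a stem-loop in place of a poly(A) tail.

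**Figure D5:**
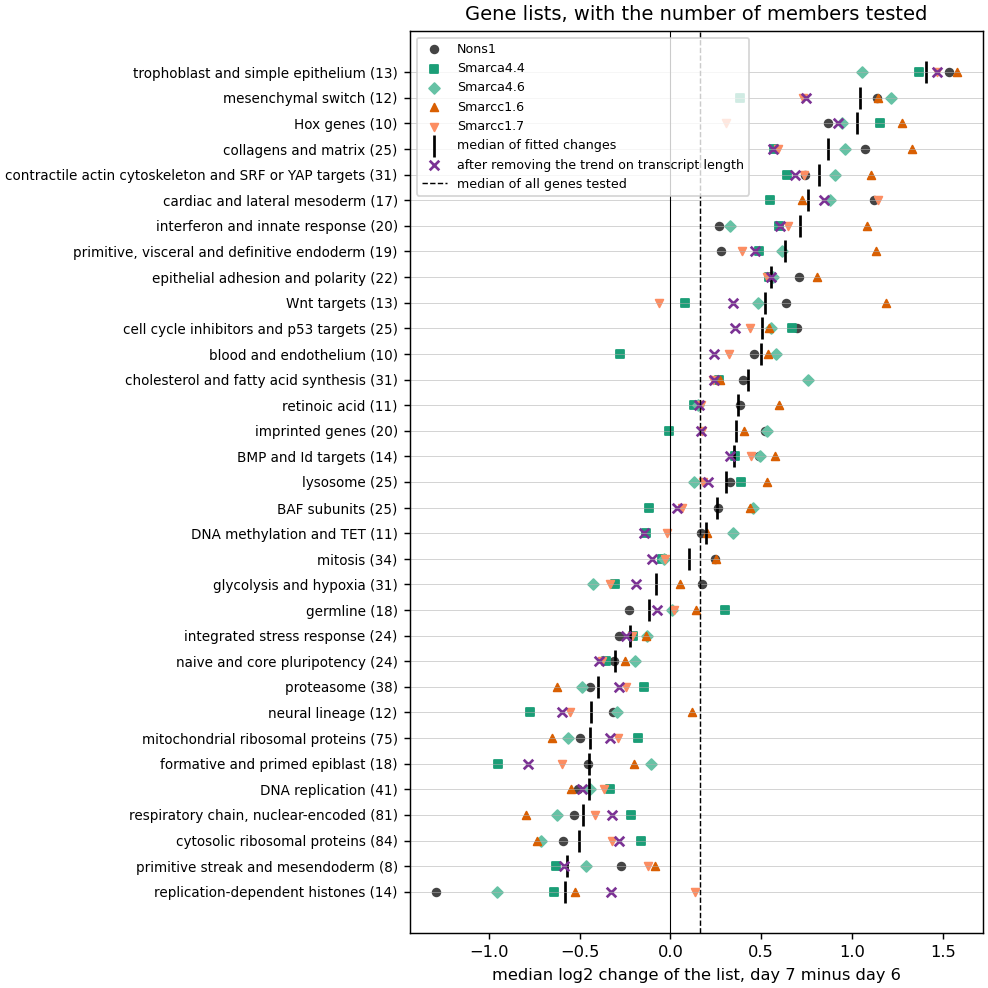
Median log2 change from day 6 to day 7 (horizontal axis) of 33 gene lists (vertical axis, with the number of members tested): coloured symbols, each culture series; bar, fitted changes; cross, after removal of the trend on transcript length; dashed line, median of all genes tested. Trophoblast and simple epithelium lie highest at 1.41, and the crosses of the ribosomal, respiratory chain, mitochondrial ribosomal and proteasome lists lie closer to 0 than their bars.

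Imprinted genes rose in part. Of 20 tested, 11 were higher and 3 lower (8 higher and 5 lower after median centring, 7 higher and 5 lower after removal of the length trend), with a median of 0.36. The share called was 70%, beside 49.7% of all genes tested. H19 (chr7:142575529-142578143), a maternally expressed noncoding RNA, measured 563, 614, 560.1, 369.6 and 444 rpm on day 6 and 1683, 1376, 1151, 1451 and 1233 rpm on day 7 (log2 change 1.45 ± 0.13 (SE), adjusted p = 6.4e-05). Igf2, the paternally expressed growth factor gene beside it, measured 22.6, 69.7, 31.1, 25.4 and 37.3 rpm and then 99.01, 154, 136, 141 and 117 rpm (log2 change 1.90 ± 0.17 (SE), adjusted p = 5.7e-05). Neither gene had overlapping days. Peg10 rose by 0.84, and Phlda2, a regulator of placental growth, fell by 0.54.

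Interferon and innate response genes had 13 of 20 higher and none lower (11 higher and 0 lower after median centring, 11 higher and 1 lower after removal of the length trend), at a median of 0.71. Ddx58 (RIG-I), a sensor of viral RNA, measured 8.78, 15.1, 10.99, 3.83 and 7.93 rpm on day 6 and 55.6, 38.3, 34.7, 19.9 and 22.4 rpm on day 7, without overlap (log2 change 1.91 ± 0.19 (SE), adjusted p = 0.00011). The class I antigen gene H2-K1 rose by 0.55 and Bst2 by 0.39 (adjusted p = 0.17 after centring), while Irf1 was not called (-0.12, adjusted p = 0.46). BAF subunits, which the knockdowns target, had 5 of 25 higher and 2 lower (1 and 3 after centring, so the balance turned). Only 28% of them were called, beside 49.7% of all genes tested. The largest called changes were those of Smarcd3, a subunit of heart and muscle, at 0.96 and Smarca2, the alternative ATPase, at -0.76.

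The step was then set beside the earlier steps of the same series. The Euclidean distance between consecutive libraries over all 25965 entries averaged 119 ± 12.7 (SD, n = 5 series, log2 units) from day 6 to day 7, 168 ± 26.5 from day 4 to day 5 and 151 ± 17.3 from day 5 to day 6. The last step was the shortest in all 5 series, and an exact two-sided sign-flip permutation test gave p = 0.0625 against either earlier step, the smallest that 5 pairs allow. With 1 rpm added before the log it was shorter than the day 5 to 6 step in 4 of 5 series (exact permutation p = 0.125). Distances between different series of the same day, over all entries, had a median of 117 on day 7 and 123 on day 6. Entries at the lowest value of a library, which depends on its depth, enter these distances. In Smarca4.4, whose day 5 library was shallow, the 2 earlier distances were 212 and 180. Over genes whose log2 values averaged 0 or more they were 92.7 and 89.0. Over those genes the means were 77.0 for the last step, 99.4 for day 4 to 5 and 91.7 for day 5 to 6. The last step was again the shortest in all 5 series.

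Gene by gene, the step differed from the day 4 to 5 step for 7441 of 13296 genes (56.0%), 4297 (32.3%) above it and 3144 (23.6%) below, and from the day 5 to 6 step for 1606 (12.1%), 870 (6.54%) above and 736 (5.54%) below. The balance turned with the scaling: after centring 3161 genes were above and 4241 below the day 4 to 5 step, and 684 above and 1049 below the day 5 to 6 step. The count against the day 5 to 6 step rested on Nons1 more than on any other series, with 309 genes left without it, and was 384 without the pairing by series. Day 6 enters the second comparison on both sides, and the day 5 library of Smarca4.4 was shallow at 6829596 reads. The largest differences above the day 4 to 5 step among genes called in both were Synpo2l, Myh7, Sh3rf2, Emp1 and Tgm1, which had dropped from day 4 to day 5 and rose from day 6 to 7. Mean levels of Myh7 on days 4 to 7 were 3.58, 1.03, 0.641 and 18.4 rpm, a difference between the steps of 6.68 ± 0.49 (SE) with an adjusted p of 3e-08. Tgm1, a transglutaminase of epithelia, had means of 10.5, 1.23, 2.17 and 7.15 rpm (difference 4.87 ± 0.32).

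In the opposite direction stood Stc1, Grin1, Gchfr, Mgst1 and Gnmt, which rose from day 4 to day 5 and fell from day 6 to day 7. The means of Stc1, a secreted glycoprotein hormone, were 1.81, 15.9, 6.498 and 1.28 rpm on days 4 to 7, and the steps differed by -5.89 ± 0.66 with an adjusted p of 1.9e-06. Those of Mgst1, a microsomal glutathione transferase, were 0.887, 8.41, 12.4 and 5.76 rpm (-4.29 ± 0.28). Grin1 was called in the step itself (adjusted p = 0.016), but its highest adjusted p with 1 series left out was 0.067.

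Against the day 5 to 6 step, the largest positive differences were those of Myh7, Igfbp4, Ddx58, Nrp2 and Vcan, none of which was called higher from day 5 to day 6. Igfbp4, an IGF-binding protein, had means of 5.55, 13.1, 8.82 and 33.8 rpm on days 4 to 7 (2.53 ± 0.53, adjusted p = 0.007), and Ddx58 had 45.4, 12.7, 9.32 and 34.2 rpm. Vcan was called in the step only narrowly (log2 change 0.86 ± 0.32 (SE), adjusted p = 0.046) and not after removal of the length trend (adjusted p = 0.14). Its rise was seen in 4 of the 5 series. The largest negative differences were those of Ankrd1, Tagln, 1700003F12Rik, Cyr61 and Mme.

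All 5 of those genes had risen from day 5 to day 6, and all but 1700003F12Rik rose again from day 6 to day 7. Ankrd1, a YAP and SRF target, had means of 0.0871, 0.207, 16.2 and 40.4 rpm on days 4 to 7, with day 5 at or near the floor of 3 reads, worth 0.127 to 0.439 rpm on that day, so that no size is given for its rise from day 5 to 6. From day 6 to 7 its log2 change was 1.39. Cyr61, a matricellular YAP target, had 24.8, 20.03, 358 and 636 rpm and Tagln 7.67, 18.7, 557 and 1273 rpm. Among 31 contractile genes 11 had a step below that of day 5 to 6 and none above, at a median change of 1.43 in the earlier step. For ribosomal protein genes 48 of 84 had a step below that of day 5 to 6 and none above, and 79 a step below that of day 4 to 5, when their median change was 0.74. Transcripts under 1 kb as a class had a median change of 0.43 from day 4 to 5 and -0.04 from day 5 to 6.

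Whether the step depended on the knockdown was tested on the day 7 minus day 6 differences. No gene passed an adjusted p of 0.05 in limma for a difference in step between Smarcc1 and Smarca4 knockdown, with 126 of 13486 genes at an unadjusted p under 0.05, nor between the 4 knockdown series and Nons1, with 210. The control arm of the second test is a single series, which adds nothing to the estimate of spread: only the pairs of hairpins give residual degrees of freedom, 2 in all. Both counts were also 0 with a filter of 10 rpm, with 1 rpm added, after median centring and after removal of the length trend, where the unadjusted counts were 39 to 282 and 41 to 440. In simulated counts with known changes, 11% of 2-fold and 68.4% of 4-fold differences between the targets were called. The simulation gave both hairpins of a target the same step and held no length trend. In the data the steps of Smarca4.4 and Smarca4.6 correlated at r = 0.538 over genes. The simulated shares may therefore be too high for these data. The power of the test against Nons1 was not simulated.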

How the data were processed

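RNA was sequenced as 75 bp single-end reads, and the submitters' processing notes name bcl2fastq, HISAT2 and the genome build mm10. Per the study's methods, reads were adapter-trimmed with trim_galore and quantified in SeqMonk. The deposited values are log2 rpm (reads scaled to library size), 1 column per library, as the authors made them. The annotation release and the strand setting are not given in the sources used here. In every library the lowest value equalled 0.9 of a read, and 100% of values under 1000 reads were whole multiples of 1 read within 0.02 reads, so whole reads were recovered from the log2 values for depth and for limma-voom, which called 6383 genes.

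The 10 libraries of days 6 and 7 were fitted with limma 3.58.1 (R 4.3.3) on the log2 values, with the mean-variance trend, culture series as a block and Benjamini-Hochberg adjustment over the 13486 genes whose log2 values averaged 0 or more. Genes were called at an adjusted p under 0.05. The earlier steps were compared in a fit of 20 libraries over 13296 genes, and the hairpin targets in the differences between days. The series pair the libraries by their labels: the deviations of a series from the means of the 2 days correlated with r from 0.234 to 0.766. The highest correlation with day 7 of another series was lower in each series, but close for Smarca4.6 (0.439 beside 0.459) and Smarca4.4 (0.146 beside 0.234). Simulated counts for 13620 genes with known changes were used to test the scripts. In the day 6 to 7 comparison 84.8% of 2-fold and 100% of 4-fold changes were recovered. Of the calls in that simulation 5.79% were false. The simulated step did not vary between series beyond the noise of the counts, for which recovery in the data may be lower. Far fewer genes were changed in the simulation, 99 by 2-fold and 95 by 4-fold, than were called in the data. This also affects recovery after adjustment, so recovery in the data is not known. Summaries used Python 3.11.15, pandas 2.3.3 and numpy 2.4.6.

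Genes named in the text are the 10 largest rises and 10 largest falls that were called, moved the same way in all 5 series and averaged log2 3 or more on the higher day, the largest called rise and fall and the members of highest level of each list, the targets, and the 5 largest differences from each earlier step in each direction. Others are said to be chosen after their values were seen. A few genes that this rule names are not reported here. The members, the 33 gene lists and the marker lists were chosen with earlier results of these data known. Motifs were searched on both strands. Alternatives changed the filter (10 rpm or none), the value added before the log (1 rpm), the scaling (median centring, quantile normalization, removal of trends on transcript length and GC content), the block and the libraries included. The 4 Nons2 libraries were not analysed here.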

Additional observations from a re-analysis of the deposited data

Results flagged for a closer look

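The step of Jph2 was uneven between series: its log2 change from day 6 to day 7 was 3.93 in Smarcc1.6 and lay between 2.96 and 3.24 in the other 4 series, a gap of 0.711 of the whole range, just above Dixon's 95% critical value of 0.710 for 5 values. Jph2 had its lowest level of day 6 in that series, at 1.65 rpm. This was the only such case among 72 sets of 5 values tested, the steps of 36 named genes, the median steps of the 33 lists and the 3 distances between days, where chance gives about 1 in 20, or 3.6 sets.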

How the results depend on the processing

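The 5 series give 4 residual degrees of freedom, so small changes may be missed. Without the replicate block 3657 genes changed, 2404 higher and 1253 lower, and 384 differed from the day 5 to 6 step. Centring on the median gene gave 2795 genes higher and 3540 lower. The number of genes that differed from the day 5 to 6 step was 309 to 1108 with 1 series left out, 309 without Nons1, 773 without Smarca4.6, 879 without Smarcc1.7 and 1021 without Smarcc1.6, and 2845 with trends on length and GC content removed. The number that changed from day 6 to 7 was 4556 to 7453 with 1 series left out, and 8637 without both Smarca4.4 and Smarcc1.7, an alternative chosen after the data were seen, as were the 2 trend removals. The distance from day 6 to day 7 was 77.0 over genes whose log2 values averaged 0 or more and 70.1 with 1 rpm added, since fewer low genes contribute. The cause of the other moves was not tested. Among 178 values for named genes, no called value changed direction, and up to 45 lost their call under single alternatives, 45 without the block, 16 after centring and 17 after removal of the length trend. Genes with a step below that of day 5 to 6 numbered 736, and 1174 after quantile normalization. The totals of genes changed from day 6 to 7 and of genes that differed from the day 4 to 5 step kept within 1.5 times under the other alternatives with all 5 series.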

Other observations

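Among genes of retinoic acid metabolism and response, 4 of 11 tested were higher and 2 lower on day 7 (2 and 2 after median centring). Of these 11, 54.5% were called, beside 49.7% of all genes tested. Cyp26b1, which breaks down retinoic acid, rose from 0.127–1.32 to 0.746–4.12 rpm (log2 change 2.14 ± 0.23 (SE), adjusted p = 0.00016), from under 3 reads in Nons1 on day 6, and the binding protein gene Crabp2 fell from 10.2–17.9 to 7.17–10.6 rpm (log2 change -0.62 ± 0.15 (SE), adjusted p = 0.0085). Of 25 lysosomal genes 12 were higher and 1 lower (9 and 2 after centring), at a median of 0.30, 0.14 above the median gene. Called genes made up 52% of this list, beside 49.7% of all genes tested. Gaa, the acid alpha-glucosidase, rose by 0.94 on the log2 scale and the protease gene Ctsd by 0.51, and Gla, the alpha-galactosidase, fell by 0.33.

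Germline genes went both ways, with 7 of 18 higher and 6 lower (2 and 6 after centring, so the balance turned). The share called was 72.2%, beside 49.7% of all genes tested. Hormad1, of the meiotic chromosome axis, fell from 16.6–56.1 to 5.01–32.9 rpm (log2 change -0.96 ± 0.16 (SE), adjusted p = 0.0012), and Taf7l rose from 10.8–27.4 to 15.3–41.6 rpm (log2 change 0.70 ± 0.10 (SE), adjusted p = 0.00072).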
